A study of Mus musculus with 8 samples.

Results

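The 46 genes described here mark T cells and natural killer cells in the mouse submandibular gland, a major salivary gland. They were taken as a named list of lineage genes, receptors, kinases, cytotoxic products and transcription factors, and each was found by its symbol among the 54838 Ensembl genes of the count tables. Of the 46, 45 passed the expression filter and were tested among 19358 genes, and 1, Foxp3, did not. None of them is triplicated in the mice studied (0 of 46 lie in the duplicated segment). The mice of interest were Dp16 males of the strain B6.129S7-Dp(16Lipi-Zbtb21)1Yey/J, a model of Down syndrome in which the part of chromosome 16 from Lipi to Zbtb21 is duplicated. They were compared with wild-type C57BL/6J males (WT). Each group had 4 libraries, both strains came from the same supplier, and no treatment is named for either. Connective and fat tissue around the glands was trimmed away before RNA extraction. The sources used here do not give age, housing or whether Dp16 and WT animals were littermates. The labels do not say that each library came from a separate animal, so p-values measure the spread between these libraries.

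T cells recognise antigen through the T cell receptor, whose signal passes through the CD3 chains to the kinases Lck and Zap70, the adaptor Lat and the kinase encoded by Prkcq. Helper T cells carry CD4, cytotoxic T cells carry CD8, and regulatory T cells depend on the transcription factor Foxp3. Natural killer cells lack the T cell receptor, use receptors such as those encoded by Ncr1 and Klrb1c, and kill with perforin and granzymes, which cytotoxic T cells also make. Salivary glands of mice are known to hold tissue-resident T cells and natural killer-like innate cells, which can share Itgae, Klrd1, Eomes and Cxcr6, so that many of the 46 genes do not belong to 1 cell type.

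Libraries held 90790542 to 115729892 reads in genes. Levels are CPM, counts scaled to a common library size with TMM factors. The 46 genes together took 0.00854% to 0.0242% of gene reads in Dp16 and 0.00509% to 0.00665% in WT, and Ptprc took the most reads of them. Mean levels lay below 1 CPM for 15 of the 46 genes in Dp16 and for 35 of 46 in WT. Markers of the gland itself dominated both groups, with summed levels of 12 epithelial genes of 227900 to 310000 CPM in Dp16 and 280300 to 365800 CPM in WT. Reads overlapping no counted gene took 18.4% to 20.8% of all reads in Dp16 and 13.8% to 15.9% in WT, and the part of this difference in the results was not tested. In whole-gland RNA, more cells of a type and more RNA per cell cannot be told apart.

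Most of the 46 genes were higher in Dp16, but few differences passed the test across all genes. By edgeR's quasi-likelihood test with Benjamini-Hochberg adjustment over all genes, 5 of the 45 tested genes rose in Dp16 and 0 fell, where 0.47% of all genes tested rose and 0.155% fell. The 5 were Prkcq, Klrd1, Itgae, Il18rap and Traf3ip3. At an unadjusted p below 0.05, 36 of 45 were higher and 0 lower. Of all genes tested, 12.7% were higher at that p and 24.6% differed in either direction. Groups did not overlap for 21 of the 45, all higher in Dp16, against 7.11% of all genes tested that were apart and higher and 6.96% that were apart and lower. The log2 fold change was positive for 43 of 45 genes, against 51.1% of all genes tested, and the median was 1.43, against 0.008 over all genes tested. Without the expression filter, 44 of all 46 genes were positive and the median was 1.45. DESeq2 called 33 of 45 higher and 0 lower, where it called 5.82% of genes higher, and limma-voom called 10 higher and 0 lower, where it called 1.28% higher. The list was drawn up with earlier results of these libraries known, so these counts are a description of it.

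**Figure D1:**
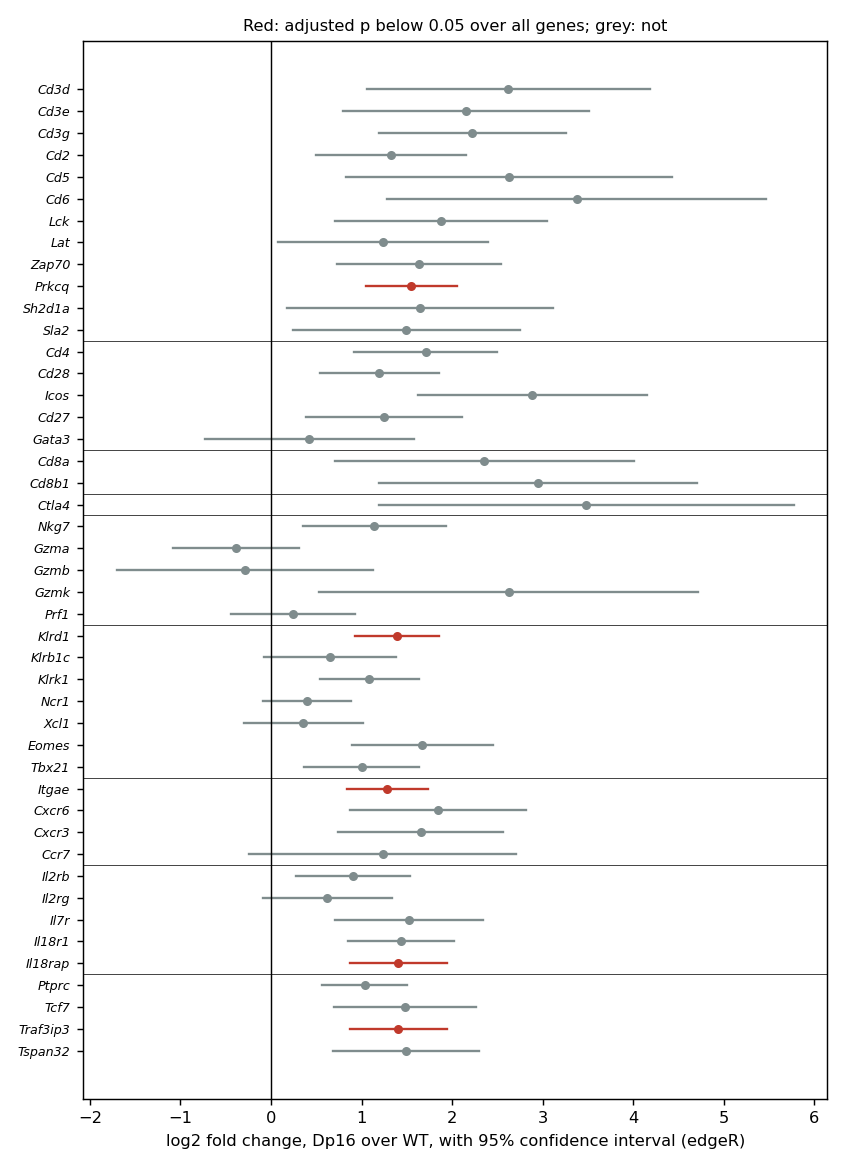
Log2 fold change of each of the 45 tested genes, Dp16 over WT, with its 95% confidence interval from edgeR, grouped by role from T cell receptor genes at the top to other lymphocyte genes at the bottom. The 5 genes in red passed an adjusted p below 0.05, and Gzma and Gzmb are the 2 genes with points below 0.

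The difference was uneven among the Dp16 libraries. The mean log2 CPM of the 46 genes, relative to the WT mean, was 1.62, 0.40, 2.14 and 1.20 in Dp16 and 0.17, 0.13, 0.04 and -0.34 in WT. All 4 Dp16 libraries lay above the 4 WT libraries on this score, with Dp16 replicate 3 highest and Dp16 replicate 2 closest to WT. Among the Dp16 libraries, replicate 3 held the highest level for 40 of the 46 genes and replicate 2 the lowest for 41. The level in Dp16 replicate 2 lay above the highest WT library for 25 genes, within the WT range for 19 and below it for 2. Calls depended on single libraries. Without WT replicates 1, 2, 3 and 4 in turn, edgeR called 1, 0, 0 and 0 of the 45 genes, and 32 to 36 had an unadjusted p below 0.05 in the higher direction. Without Dp16 replicates 1, 2, 3 and 4 it called 0, 25, 1 and 0, and 34 to 38 had such a p, while 1 was lower at that p without Dp16 replicate 3. Of all genes tested without Dp16 replicate 2, 1.8% were called higher. The median log2 fold change ranged from 1.21, without Dp16 replicate 3, to 1.61, without Dp16 replicate 2.

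**Figure D2:**
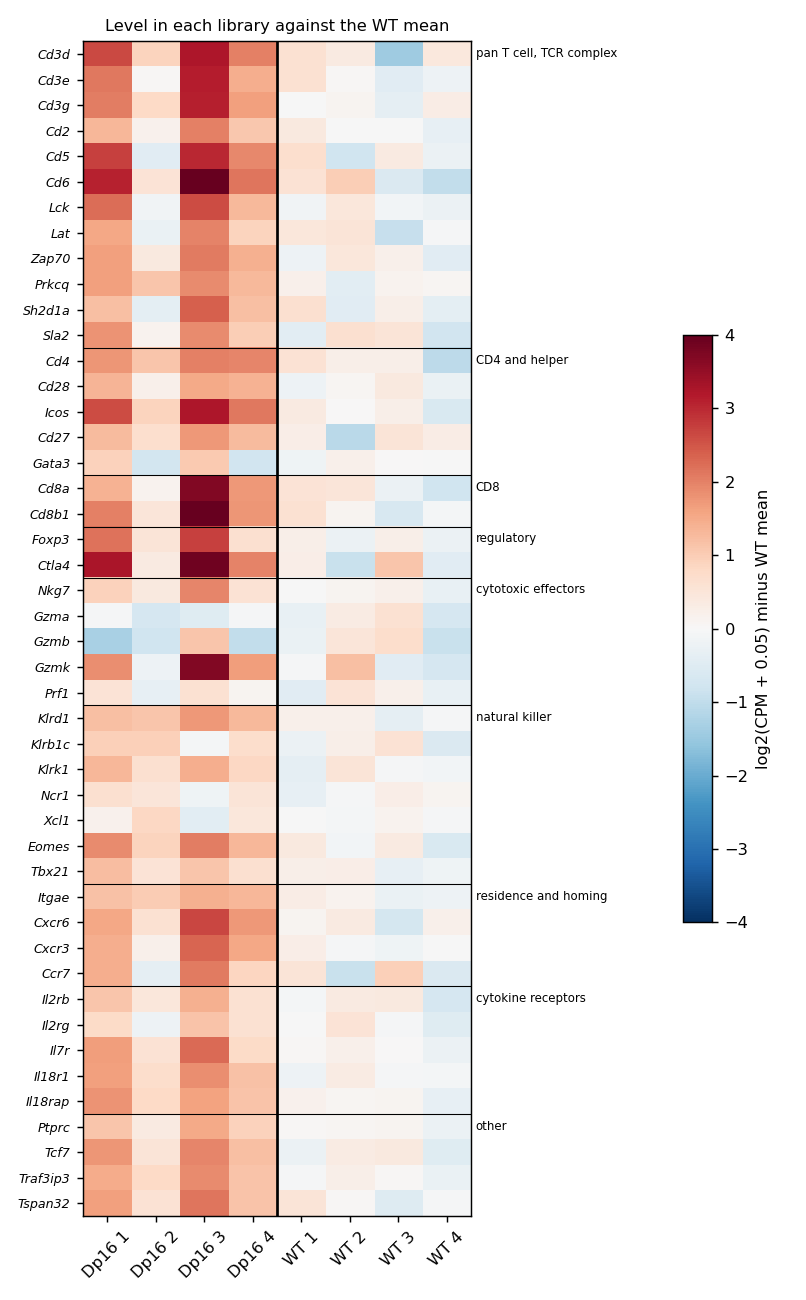
Level of each of the 46 genes (rows, grouped by role) in each library (columns, Dp16 left and WT right), as log2(CPM + 0.05) minus the WT mean, red for higher and blue for lower. Dp16 replicate 3 is the darkest column and Dp16 replicate 2 the palest of the Dp16 columns.

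The 5 genes that rose span signalling, receptors and adhesion. Here and below, 4 values in a row are replicates 1 to 4. Prkcq, a protein kinase C of T cell receptor signalling on chromosome 2 from 11172108 to 11301222 on GRCm38, had 2.76, 1.93, 3.34 and 2.17 CPM in Dp16 and 0.987, 0.635, 0.942 and 0.92 CPM in WT. Its lowest Dp16 value exceeded every WT value (log2 fold change 1.55 with SE 0.225, edgeR adjusted p = 0.0306). Klrd1, which encodes CD94, a receptor chain of natural killer cells and some CD8 T cells on chromosome 6 from 129591782 to 129598775, had 1.96, 1.82, 2.79 and 2.09 CPM in Dp16 and 0.936, 0.947, 0.625 and 0.79 CPM in WT. Dp16 replicate 2 was close to Dp16 replicates 1 and 4 and well above WT (log2 fold change 1.39 with SE 0.206, edgeR adjusted p = 0.0331). Itgae encodes CD103, the integrin chain that binds E-cadherin on epithelium, and lies on chromosome 11 from 73090583 to 73147446. It had 1.52, 1.38, 1.85 and 1.69 CPM in Dp16 and 0.816, 0.729, 0.536 and 0.564 CPM in WT, with the narrowest relative spread of the 5 in Dp16 (log2 fold change 1.28 with SE 0.199, edgeR adjusted p = 0.0385). Il18rap, the accessory chain of the interleukin 18 receptor on chromosome 1 from 40515362 to 40551705, had 3.74, 1.86, 3.28 and 2.36 CPM in Dp16 and 1.18, 1.1, 1.13 and 0.824 CPM in WT (log2 fold change 1.41 with SE 0.24, edgeR adjusted p = 0.0428). Traf3ip3, which encodes a protein that binds TRAF3 and acts in lymphocyte development, lies on chromosome 1 from 193175453 to 193201703 and had 3.9, 2.42, 5.12 and 3.06 CPM in Dp16 and 1.32, 1.62, 1.41 and 1.13 CPM in WT (log2 fold change 1.40 with SE 0.238, edgeR adjusted p = 0.0428). For each of the 5 the groups did not overlap. All 5 kept their call without Dp16 replicate 2, without which 1.8% of all genes were called higher. The highest edgeR adjusted p when 1 library was left out was 0.1 for Prkcq, 0.1 for Klrd1, 0.115 for Itgae, 0.135 for Il18rap and 0.134 for Traf3ip3. Itgae was also called without WT replicate 1 and Prkcq without Dp16 replicate 3. In the remaining omissions 0 of the 5 were called.

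Promoter windows are shown for the 3 of these 5 genes that have an entry, with that of Ncr1, a natural killer gene that was not called, to show where letters bound by RUNX, ETS, T-box and TCF factors lie. Each window runs from 250 bases before to 50 bases after the RefSeq start on GRCm38.p6, 5′ to 3′ on the strand of the gene. Capitals mark matches, on either strand, to the letters TGTGGT (RUNX), AGGAAG (ETS), AGGTGT (T-box) and CTTTGA (TCF).
Prkcq, chr2:11172132-11172431, plus strand: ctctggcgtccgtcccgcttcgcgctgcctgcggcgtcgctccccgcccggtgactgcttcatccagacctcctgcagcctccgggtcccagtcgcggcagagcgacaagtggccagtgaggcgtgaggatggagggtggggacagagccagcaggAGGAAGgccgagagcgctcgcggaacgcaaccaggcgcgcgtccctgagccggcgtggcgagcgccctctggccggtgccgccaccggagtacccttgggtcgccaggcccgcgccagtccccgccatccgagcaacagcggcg
Il18rap, chr1:40515112-40515411, plus strand: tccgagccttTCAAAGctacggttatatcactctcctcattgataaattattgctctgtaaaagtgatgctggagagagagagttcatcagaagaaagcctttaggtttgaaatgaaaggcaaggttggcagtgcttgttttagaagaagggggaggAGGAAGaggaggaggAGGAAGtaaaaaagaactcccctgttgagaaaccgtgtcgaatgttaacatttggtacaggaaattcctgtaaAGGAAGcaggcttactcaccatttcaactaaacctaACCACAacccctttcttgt
Traf3ip3, chr1:193201497-193201796, minus strand: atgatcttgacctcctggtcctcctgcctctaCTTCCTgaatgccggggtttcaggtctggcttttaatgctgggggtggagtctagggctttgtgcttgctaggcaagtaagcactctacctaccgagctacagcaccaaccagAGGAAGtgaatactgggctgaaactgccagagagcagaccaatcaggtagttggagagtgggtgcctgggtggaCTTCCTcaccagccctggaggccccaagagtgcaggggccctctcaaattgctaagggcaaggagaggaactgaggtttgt
Ncr1, chr7:4337465-4337764, plus strand: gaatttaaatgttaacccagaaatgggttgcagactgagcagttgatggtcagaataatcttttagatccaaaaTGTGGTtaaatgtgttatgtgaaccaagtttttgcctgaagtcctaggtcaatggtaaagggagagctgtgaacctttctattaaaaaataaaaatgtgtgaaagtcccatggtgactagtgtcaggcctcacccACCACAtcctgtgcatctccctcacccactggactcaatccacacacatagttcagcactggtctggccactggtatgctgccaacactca
The ETS letters were found once in the Prkcq window and 3 times in each of the Il18rap and Traf3ip3 windows, and the RUNX letters once in the Il18rap window and at 2 places in the Ncr1 window. The Il18rap window also held the TCF letters once. Windows of Cd3g and Cd8a, which were not called either, were searched too and are not printed. The Cd3g window held the T-box letters once and none of the others, and the Cd8a window held none of these letters. Windows were listed for 35 of the 46 genes, 44 windows in all. RUNX letters were present in 20 of the 44, which is 45.5%, against 16.8% of all 32851 windows. ETS letters were in 25 of 44, or 56.8%, against 35.4% of all. T-box and TCF letters were in 9 windows each, or 20.5%, against 13.7% and 16% of all. Windows of 1 gene can overlap, as those of Ncr1 did, so that the same match can be counted more than once. By gene, RUNX letters were present for 19 of the 35, ETS letters for 22, and T-box and TCF letters for 9 each. A share by gene over all windows was not counted. A match of letters is a description and not a binding site. Runx1, which encodes a RUNX factor and lies in the duplicated segment, had 28.1, 23.1, 34.3 and 26.2 CPM in Dp16 and 15.9, 15.6, 17 and 16.1 CPM in WT (log2 fold change 0.79 with SE 0.115, edgeR adjusted p = 0.0306). Gabpa, an ETS factor gene of the same segment, had 52.4, 60.2, 50.0 and 58.4 CPM in Dp16 and 37.3, 35.8, 33.2 and 37.4 CPM in WT (log2 fold change 0.62 with SE 0.0804, edgeR adjusted p = 0.0265). Ets2 and Erg, the other two ETS factor genes of the segment examined, were not called by edgeR. Ets2 had 54.3, 53.2, 49.9 and 52.8 CPM in Dp16 and 42, 44.8, 49.9 and 42.2 CPM in WT (log2 fold change 0.23 with SE 0.0739, edgeR adjusted p = 0.115), and Erg had 1.4, 1.29, 1.23 and 1.02 CPM in Dp16 and 0.926, 0.531, 0.704 and 0.781 CPM in WT (log2 fold change 0.75 with SE 0.212, edgeR adjusted p = 0.0965). Runx1 and Gabpa rose in Dp16, and the part of these 4 genes in the levels of the 46 genes was not tested.

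Genes of the T cell receptor complex and its signalling were all higher on average in Dp16, by amounts that differed between the Dp16 libraries. All 12 genes of this group had positive log2 fold changes, with a median of 1.76. Prkcq was the 1 that passed, DESeq2 called 9 higher, limma-voom 1 higher, and both called 0 lower. For this and the following groups of genes, the shares called higher over all genes were 5.82% by DESeq2 and 1.28% by limma-voom. Of all genes tested, 12.7% were higher at an unadjusted p below 0.05, and 7.11% were apart between groups and higher. Cd3d, Cd3e and Cd3g encode the chains that carry the receptor's signal into the cell. Cd3g had 2.4, 0.979, 5.09 and 1.8 CPM in Dp16 and 0.534, 0.583, 0.407 and 0.668 CPM in WT, with no overlap between groups (log2 fold change 2.22 with SE 0.458, edgeR adjusted p = 0.0609). Cd3d had 0.95, 0.243, 1.46 and 0.589 CPM in Dp16 and 0.191, 0.156, 0.00992 and 0.165 CPM in WT, so that its groups were also apart (log2 fold change 2.62 with SE 0.695, edgeR adjusted p = 0.0861). In WT replicate 3 Cd3d had 1 read, under a counting floor of 3 reads, so the size of its fold change is uncertain. Cd3e had 1.86, 0.399, 3.82 and 1.14 CPM in Dp16 and 0.614, 0.406, 0.268 and 0.33 CPM in WT. The Cd3e value of Dp16 replicate 2 lay inside the WT range while the other 3 Dp16 libraries lay above it (log2 fold change 2.15 with SE 0.602, edgeR adjusted p = 0.0936). Lck, the kinase that starts the signal, had 3.34, 0.607, 4.34 and 1.69 CPM in Dp16 and 0.604, 0.937, 0.615 and 0.564 CPM in WT. Dp16 replicate 2 again lay inside the WT range and the other 3 Dp16 libraries above it (log2 fold change 1.88 with SE 0.518, edgeR adjusted p = 0.0919). The surface genes Cd2, Cd5 and Cd6, the kinase gene Zap70, and the adaptor genes Lat, Sh2d1a and Sla2 overlapped between groups, with log2 fold changes from 1.24 in Lat to 3.37 in Cd6 and edgeR adjusted p-values of 0.0781 in Zap70 to 0.184 in Lat. Cd6, a partner of Cd5 on T cells, was at most 0.219 CPM in WT and at 0.147 CPM in Dp16 replicate 2.

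Among genes of CD4 and helper T cells the groups did not overlap for Cd4, Icos and Cd27. Of the 5 genes, 0 passed by edgeR, 4 had an unadjusted p below 0.05 in the higher direction, DESeq2 called 4 higher and limma-voom 1 higher, and the median log2 fold change was 1.25. Cd4, the coreceptor of helper T cells, which some dendritic cells also carry, had 2.78, 1.76, 3.33 and 3.19 CPM in Dp16 and 1.19, 0.927, 0.922 and 0.356 CPM in WT. All 4 Dp16 libraries were above WT, including replicate 2 (log2 fold change 1.71 with SE 0.351, edgeR adjusted p = 0.0609). Icos, a costimulatory receptor of activated T cells, had 0.813, 0.217, 1.28 and 0.558 CPM in Dp16 and 0.131, 0.0937, 0.119 and 0.0434 CPM in WT. The groups were apart, at 1.28 CPM or less in every library (log2 fold change 2.89 with SE 0.562, edgeR adjusted p = 0.0573). Cd27, a costimulatory receptor of the TNF receptor family, had 1.05, 0.667, 1.45 and 1.04 CPM in Dp16 and 0.493, 0.167, 0.605 and 0.503 CPM in WT (log2 fold change 1.25 with SE 0.383, edgeR adjusted p = 0.111). For Cd28, the main costimulatory receptor of T cells, levels were 4.22, 1.85, 4.67 and 4.32 CPM in Dp16 and 1.38, 1.72, 2.14 and 1.33 CPM in WT, so that Dp16 replicate 2 lay inside the WT range and the other 3 above it (log2 fold change 1.20 with SE 0.291, edgeR adjusted p = 0.0765). Gata3, a factor of type 2 helper cells and of innate lymphoid cells, was lower in Dp16 replicates 2 and 4, at 0.13 and 0.124 CPM, than in all WT libraries, and higher in the other 2 Dp16 libraries (log2 fold change 0.42, 95% confidence interval -0.73 to 1.58, edgeR adjusted p = 0.629).

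Regulatory genes were near the limit of counting. Foxp3 had 24, 4, 37 and 4 reads in Dp16 and 2, 0, 2 and 0 reads in WT. A floor of 3 reads corresponds to 0.0259 to 0.033 CPM. All WT libraries were under it and Dp16 replicates 2 and 4 were 1 read above it, so no fold is given. Ctla4, an inhibitory receptor that regulatory and activated T cells carry, had 92, 8, 143 and 31 reads in Dp16 and 6, 0, 15 and 2 reads in WT. Dp16 replicate 2 lay within the WT range (log2 fold change 3.48 with SE 1.02, edgeR adjusted p = 0.103), and DESeq2 called Ctla4 higher (DESeq2 adjusted p = 0.0439). Foxp3 exons overlap other genes on both strands, and the strand setting of the counting is not given, so its few reads cannot be assigned to Foxp3 with certainty.

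The 2 CD8 genes varied widely across Dp16 libraries. Cd8a, the coreceptor chain of cytotoxic T cells that some innate cells also carry, had 1.12, 0.442, 5.83 and 1.46 CPM in Dp16 and 0.604, 0.583, 0.337 and 0.208 CPM in WT. Dp16 replicate 3 stood far above all other libraries and Dp16 replicate 2 lay within the WT range (log2 fold change 2.36 with SE 0.736, edgeR adjusted p = 0.113). Cd8b1, the chain more restricted to T cells, had 0.64, 0.191, 2.65 and 0.537 CPM in Dp16 and 0.211, 0.135, 0.0595 and 0.113 CPM in WT, again highest in Dp16 replicate 3 and inside the WT range in Dp16 replicate 2 (log2 fold change 2.95 with SE 0.78, edgeR adjusted p = 0.0856). By edgeR 0 of the 2 passed, though both had an unadjusted p below 0.05, while DESeq2 called both higher and limma-voom called 0.

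Cytotoxic products did not move as 1 group. Of the 5 genes, 0 passed by edgeR, 2 had an unadjusted p below 0.05, DESeq2 called 2 higher (Nkg7 and Gzmk) and limma-voom 0, and the median log2 fold change was 0.24. Gzmk, a granzyme of memory CD8 T cells, had 0.448, 0.0693, 1.71 and 0.382 CPM in Dp16 and 0.0805, 0.26, 0.0496 and 0.0347 CPM in WT, with Dp16 replicate 3 far above the others (log2 fold change 2.62 with SE 0.93, edgeR adjusted p = 0.141). Nkg7, a protein of cytotoxic granules, had 1.51, 1.04, 3.19 and 1.2 CPM in Dp16 and 0.775, 0.843, 0.902 and 0.625 CPM in WT, with groups apart (log2 fold change 1.14 with SE 0.352, edgeR adjusted p = 0.111). For Gzma, a granzyme of natural killer and cytotoxic T cells, levels were 1.19, 0.763, 0.873 and 1.2 CPM in Dp16 and 0.997, 1.57, 1.93 and 0.763 CPM in WT. Its groups overlapped, with 2 WT libraries above every Dp16 library, and 0 of the 4 Dp16 libraries lay above WT (log2 fold change -0.39, 95% confidence interval -1.08 to 0.30, edgeR adjusted p = 0.452). Gzmb, a granzyme that starts cell death in targets, had 0.174, 0.269, 1.12 and 0.227 CPM in Dp16 and 0.403, 0.718, 0.833 and 0.243 CPM in WT. Dp16 replicate 3 was the highest of all 8 libraries and the other 3 Dp16 libraries lay at the low end of the WT range or below it (log2 fold change -0.29, 95% confidence interval -1.70 to 1.13, edgeR adjusted p = 0.802). Prf1, perforin, had 1.04, 0.555, 1.1 and 0.765 CPM in Dp16 and 0.503, 1.04, 0.813 and 0.564 CPM in WT, with overlapping groups (log2 fold change 0.24, 95% confidence interval -0.44 to 0.93, edgeR adjusted p = 0.642).

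**Figure D3:**
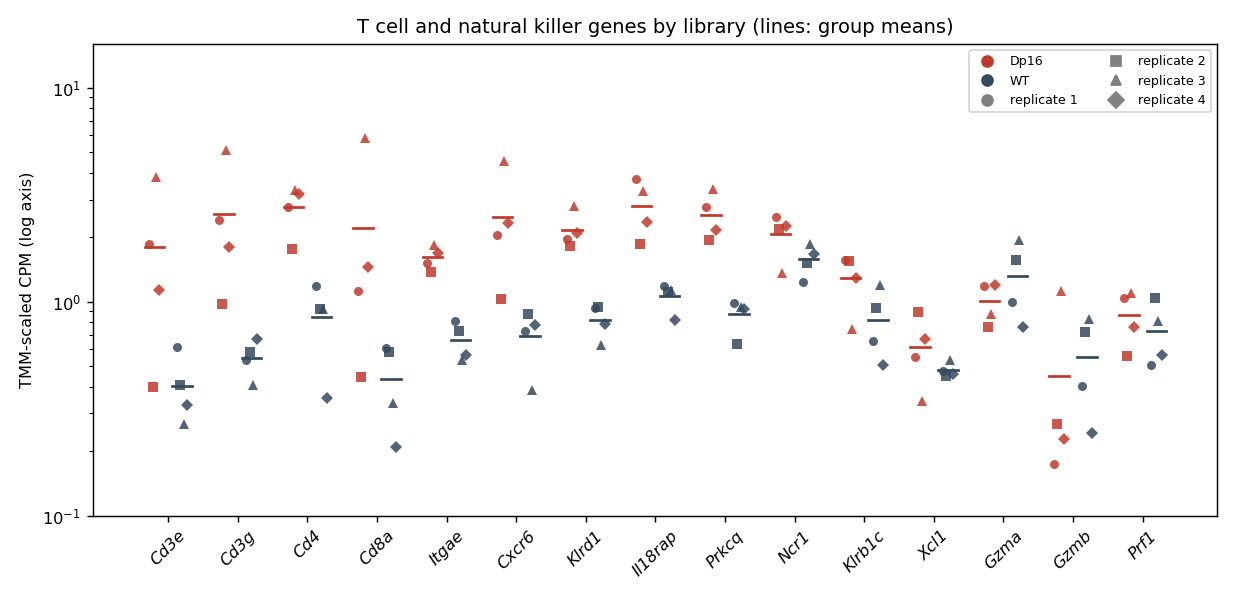
TMM-scaled CPM on a log axis of 15 genes in each library, Dp16 left of WT for each gene, with the replicate given by the symbol and group means as lines. The 4 Dp16 points of Prkcq, Klrd1, Itgae and Il18rap lie above all WT points, while the points of Ncr1, Xcl1, Gzma, Gzmb and Prf1 overlap.

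Among the 7 genes of natural killer receptors and factors, all log2 fold changes were positive, with a median of 1.00, and Klrd1 was the 1 that passed. DESeq2 called 4 higher (Klrd1, Klrk1, Eomes and Tbx21), limma-voom 3 higher, and both called 0 lower. Klrk1, which encodes NKG2D, an activating receptor of natural killer and CD8 T cells, had 4.88, 3.03, 5.3 and 3.42 CPM in Dp16 and 1.48, 2.75, 1.84 and 1.76 CPM in WT (log2 fold change 1.09 with SE 0.244, edgeR adjusted p = 0.0695). Eomes, a factor of natural killer and memory CD8 T cells, had 1.56, 0.763, 1.77 and 1.05 CPM in Dp16 and 0.524, 0.354, 0.506 and 0.234 CPM in WT, and Tbx21, which encodes T-bet, had 0.676, 0.399, 0.613 and 0.434 CPM in Dp16 and 0.312, 0.323, 0.198 and 0.226 CPM in WT. Groups were apart for these 3 genes (log2 fold change 1.67 with SE 0.346, edgeR adjusted p = 0.0616 for Eomes and log2 fold change 1.00 with SE 0.283, edgeR adjusted p = 0.0955 for Tbx21). Ncr1, which encodes the natural killer receptor NKp46, had 2.48, 2.19, 1.36 and 2.26 CPM in Dp16 and 1.24, 1.52, 1.86 and 1.67 CPM in WT. Klrb1c, which encodes NK1.1, had 1.57, 1.55, 0.743 and 1.29 CPM in Dp16 and 0.654, 0.937, 1.19 and 0.503 CPM in WT. Dp16 replicate 3, the highest library for the CD3 and CD8 genes, was the lowest Dp16 library for Ncr1, Klrb1c and Xcl1. It lay within the WT range for Ncr1 and Klrb1c (log2 fold change 0.40, 95% confidence interval -0.09 to 0.88, edgeR adjusted p = 0.281 for Ncr1 and log2 fold change 0.65, 95% confidence interval -0.08 to 1.38, edgeR adjusted p = 0.245 for Klrb1c). Xcl1, a chemokine made by natural killer and CD8 T cells, ranged from 0.343 to 0.893 CPM in Dp16 and from 0.448 to 0.535 CPM in WT (log2 fold change 0.36, 95% confidence interval -0.29 to 1.01, edgeR adjusted p = 0.463).

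Genes of residence and homing included Itgae, above, and 3 chemokine receptor genes that did not pass. By DESeq2 3 of the 4 genes were called higher, by limma-voom 1, and both called 0 lower. Cxcr6, the receptor for Cxcl16 on resident lymphocytes, had 2.04, 1.03, 4.54 and 2.32 CPM in Dp16 and 0.725, 0.875, 0.387 and 0.781 CPM in WT, with groups apart (log2 fold change 1.84 with SE 0.434, edgeR adjusted p = 0.073). Cxcr3, the receptor for Cxcl9 and Cxcl10 on effector T cells, had 1.23, 0.494, 2.3 and 1.34 CPM in Dp16 and 0.513, 0.406, 0.367 and 0.416 CPM in WT. The same 3 Dp16 libraries lay above WT and Dp16 replicate 2 inside its range (log2 fold change 1.65 with SE 0.404, edgeR adjusted p = 0.0766). Ccr7, which guides naive and central memory T cells to lymph nodes, had 0.585, 0.13, 0.928 and 0.372 CPM in Dp16 and 0.282, 0.0729, 0.397 and 0.104 CPM in WT, with overlapping groups (log2 fold change 1.23 with SE 0.656, edgeR adjusted p = 0.271).

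Cytokine receptor genes were apart between groups in 4 of 5 cases, all higher in Dp16, where 7.11% of all genes tested were apart and higher. Il18rap passed, DESeq2 called 4 higher and limma-voom 2, and the median log2 fold change was 1.41. Il18r1, the ligand-binding chain of the interleukin 18 receptor, had 3.61, 1.85, 4.15 and 2.59 CPM in Dp16 and 0.956, 1.42, 1.09 and 1.06 CPM in WT (log2 fold change 1.43 with SE 0.261, edgeR adjusted p = 0.051), just above the threshold for its adjusted p. Il7r, the interleukin 7 receptor chain that T cells and innate lymphoid cells use to survive, had 3.62, 1.65, 5.46 and 1.88 CPM in Dp16 and 1.14, 1.25, 1.09 and 0.911 CPM in WT (log2 fold change 1.52 with SE 0.365, edgeR adjusted p = 0.0745). Il2rb, shared by the receptors for interleukins 2 and 15, had 6.37, 4.05, 7.82 and 4.46 CPM in Dp16 and 2.78, 3.74, 3.84 and 1.8 CPM in WT (log2 fold change 0.90 with SE 0.281, edgeR adjusted p = 0.113). Il2rg, the common chain of these receptors, overlapped, with levels from 0.945 to 2.47 CPM in Dp16 and from 0.772 to 1.64 CPM in WT (log2 fold change 0.62 with SE 0.318, edgeR adjusted p = 0.255).

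The remaining genes were apart between groups in 4 of 4 cases, all higher in Dp16, where 7.11% of all genes tested were apart and higher. Ptprc encodes CD45, which all white blood cells carry, and took the most reads of the 46 genes, at 67.7, 40.0, 88.4 and 59 CPM in Dp16 and 32.1, 32.7, 33.5 and 26.5 CPM in WT (log2 fold change 1.03 with SE 0.206, edgeR adjusted p = 0.0589). Tcf7, a factor of naive and memory T cells and of innate lymphoid cells, had 2.34, 0.953, 2.64 and 1.56 CPM in Dp16 and 0.544, 0.822, 0.873 and 0.451 CPM in WT (log2 fold change 1.48 with SE 0.349, edgeR adjusted p = 0.0732). Tspan32, a tetraspanin of blood cells, had 2.43, 1.14, 3.42 and 1.68 CPM in Dp16 and 1.1, 0.77, 0.506 and 0.711 CPM in WT (log2 fold change 1.49 with SE 0.359, edgeR adjusted p = 0.0757). DESeq2 called these 3 and Traf3ip3 higher, and limma-voom called Ptprc and Traf3ip3 higher. Per kilobase of exon, mean levels in Dp16 ran from 0.035 CPM in Foxp3 to 3.48 CPM in Ptprc, with Nkg7 (1.9), Klrd1 (1.69) and Ncr1 (1.35) next below Ptprc. In WT the corresponding levels per kilobase ran from 0.00218 CPM in Foxp3 to 1.7 CPM in Ptprc, with Gzma (1.31), Ncr1 (1.02) and Xcl1 (0.916) next below it.

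Subsets were compared within each library through 8 ratios of log2 CPM, each compared by a two-sided exact permutation test over the 35 relabellings it allows, with the smallest possible p of 0.0286. None of the 8 passed after adjustment over the 8, and 0 of 8 had an unadjusted p below 0.05. Ratios use log2 CPM with a prior count of 2. The log2 ratio of Cd8a to Cd4 averaged -0.89 ± 1.18 in Dp16 and -0.93 ± 0.34 in WT (SD, n = 4 each), a difference of 0.04 (exact permutation p = 0.971, adjusted p = 0.971). It was 0.80 in Dp16 replicate 3, the 1 library of 8 with a higher level of Cd8a than of Cd4, and -1.95 in Dp16 replicate 2, the lowest of all. The log2 ratio of Cd4 to Cd3e differed by 0.01 (exact permutation p = 0.971). Nothing is read from the ratio of Foxp3 to Cd4, since Foxp3 lay under the floor in all WT libraries and the prior count sets the value. Relative to Cd3e, Prf1 averaged -0.68 ± 0.92 in Dp16 and 0.83 ± 0.81 in WT, a difference of -1.51 that 2 of 35 relabellings reached (exact permutation p = 0.0571, adjusted p = 0.457). Ncr1 relative to Cd3e averaged 0.58 ± 1.60 in Dp16 and 1.96 ± 0.74 in WT, a difference of -1.38 that 6 of 35 relabellings reached (exact permutation p = 0.171, adjusted p = 0.686). The ratios of Itgae, Klrd1 and Ccr7 to Cd3e differed by -0.48, -0.38 and -0.61 (exact permutation p = 0.457, 0.514 and 0.457). Single libraries set much of these values. Without Dp16 replicate 3 the differences were -0.69 for Ncr1, -0.05 for Itgae and -0.01 for Klrd1, and without Dp16 replicate 2 they were -1.99, -0.98 and -0.87. Ccr7 differed by -0.08 without WT replicate 3 and by -1.00 without WT replicate 2. In Dp16 the SD exceeded 1 log2 unit for 6 of the 8 ratios, so these tests do not show that the subsets were in equal proportion. In 3 further ratios of CPM, chosen after values were seen and not tested, the groups were apart in 1. Klrd1 to Ncr1 was 0.79, 0.83, 2.05 and 0.922 in Dp16 and 0.756, 0.623, 0.335 and 0.471 in WT. Itgae to Ncr1 was 0.613, 0.629, 1.35 and 0.749 in Dp16 and 0.659, 0.479, 0.287 and 0.337 in WT, and the groups overlapped. Cd8a to Cd8b1 also overlapped, at 1.76 to 2.71 in Dp16 and 1.85 to 5.67 in WT.

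**Figure D4:**
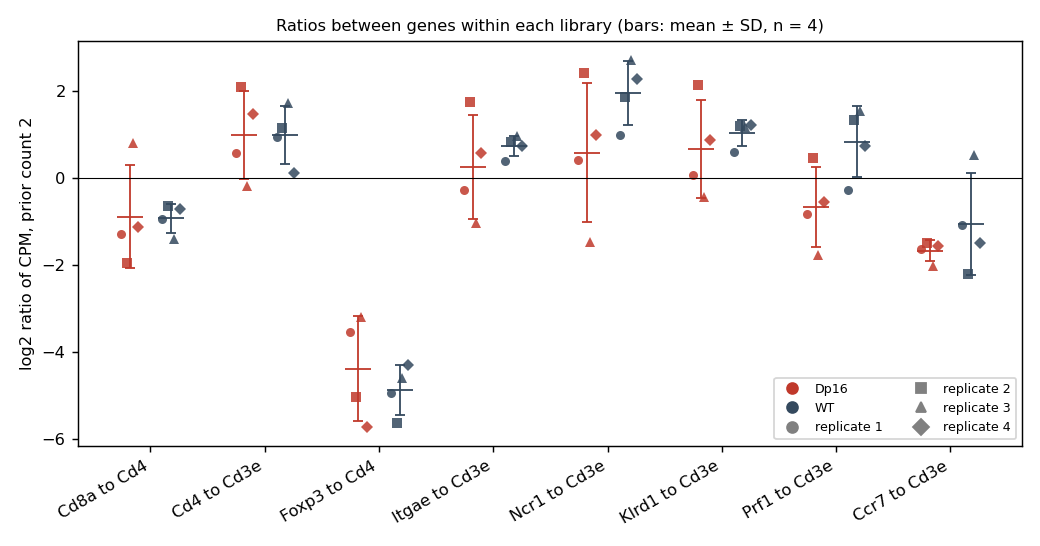
Log2 ratio of 2 genes within each library for the 8 ratios tested, Dp16 left of WT, with each library as a point and mean ± SD (n = 4) as bars. Points of the groups overlap in all 8 ratios, and the SD of Dp16 exceeds that of WT in all but the ratio of Ccr7 to Cd3e.

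Other genes of the same pathways were examined through 4 lists. Of all genes tested, 12.7% were higher at an unadjusted p below 0.05. The shares called higher were 0.47% by edgeR, 5.82% by DESeq2 and 1.28% by limma-voom. Of 21 tested genes of T cell receptor signalling outside the 46, edgeR called 0, 17 were higher at an unadjusted p below 0.05, DESeq2 called 16 higher and limma-voom 2, and the median log2 fold change was 1.36. The receptor constant gene Trbc1 and the receptor gene Cd96 were among the 3 with the smallest p-values (Trbc1, log2 fold change 1.58 with SE 0.31, edgeR adjusted p = 0.0577; Cd96, log2 fold change 2.01 with SE 0.412, edgeR adjusted p = 0.0609). Trbc1 and Trbc2 are near-identical, so their counts are uncertain. Of 21 tested natural killer and cytotoxic genes, edgeR called 1 higher, 10 were higher at an unadjusted p below 0.05, DESeq2 called 9 higher and limma-voom 1 higher, with 0 lower by each, and the median was 0.80. The called gene was Crtam, a receptor of cytotoxic cells that binds Cadm1, with 0.722, 0.494, 0.65 and 0.444 CPM in Dp16 and 0.201, 0.25, 0.129 and 0.147 CPM in WT (log2 fold change 1.67 with SE 0.297, edgeR adjusted p = 0.0483). The Klra genes, which encode Ly49 receptors and share sequence with each other, had log2 fold changes of 0.01 to 0.89, and edgeR and limma-voom called 0 of the 4 tested, while DESeq2 called Klra4 higher (DESeq2 adjusted p = 0.0440). Of 19 tested genes of helper, follicular, regulatory and exhausted T cells, edgeR called 0, 11 were higher at an unadjusted p below 0.05, DESeq2 called 7 higher and limma-voom 1. Lef1, of naive and central memory T cells, and Stat4, of type 1 helper cells, were among the 3 with the smallest p-values (Lef1, log2 fold change 1.87 with SE 0.387, edgeR adjusted p = 0.0616; Stat4, log2 fold change 1.35 with SE 0.318, edgeR adjusted p = 0.0729). Il17a was at 0 reads in all 8 libraries and Ifng was at or below 0.213 CPM in all 8.

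Ligands and partners of the receptors among the 46 were examined next, where again 12.7% of all genes tested were higher at an unadjusted p below 0.05. Of 20 tested, edgeR called 0, 6 were higher and 0 lower at an unadjusted p below 0.05, DESeq2 called 3 higher and limma-voom 0, and the median log2 fold change was 0.44. Cxcl9, a ligand of Cxcr3 that interferon gamma induces, had 2.21, 0.659, 4.46 and 2.74 CPM in Dp16 and 0.483, 0.729, 1.26 and 0.39 CPM in WT (log2 fold change 1.81 with SE 0.553, edgeR adjusted p = 0.11). Its highest library was Dp16 replicate 3, and Dp16 replicate 2 lay within WT, as for Cxcr3. Cxcl16, the ligand of Cxcr6, had 17.1 to 24.4 CPM in Dp16 and 20.0 to 31.4 CPM in WT (log2 fold change -0.28 with SE 0.161, edgeR adjusted p = 0.306), and Cdh1, E-cadherin, the partner of the Itgae product, had 123 to 189 CPM in Dp16 and 122 to 178 CPM in WT (log2 fold change -0.05 with SE 0.17, edgeR adjusted p = 0.878). The smallest p-values were those of H2-Ab1, H60b and Cxcl9 (log2 fold change 0.68 with SE 0.169, edgeR adjusted p = 0.0781 for H2-Ab1 and log2 fold change 1.55 with SE 0.399, edgeR adjusted p = 0.0826 for H60b, a ligand of the Klrk1 product). Ccl19 and Ccl21a, ligands of Ccr7, have further annotated copies, so their reads cannot be assigned to 1 gene, and 0 or 1 read was counted per library.

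Markers of some other cells were higher in the same libraries as these genes, and the part of those cells in the results was not tested. Summed levels of 12 B and plasma cell genes were 341 to 540.0 CPM in Dp16 and 234 to 330.3 CPM in WT. By edgeR 0 of the 10 tested were called, 8 were higher at an unadjusted p below 0.05, DESeq2 called 8 higher and limma-voom 2. For this and the following lists, 12.7% of all genes tested were higher at an unadjusted p below 0.05. Over all genes, edgeR called 0.47% higher and 0.155% lower, DESeq2 called 5.82% higher and limma-voom 1.28% higher. Lymph nodes lie beside the gland. A list of 11 genes of lymph node stroma and high endothelium also held Ltb, Lta and Fcrla, which lymphocytes express. Its summed level was 15 to 32.2 CPM in Dp16 and 10.3 to 16.6 CPM in WT. Of its 5 tested genes edgeR called 0, and 4 were higher at an unadjusted p below 0.05, namely Ltb, Fcrla, Enpp2 and Fut7. DESeq2 called 1 higher, Ltb, and limma-voom 0. The high endothelial genes Glycam1, Madcam1 and Chst4 had at most 0.0457 CPM in any library. In Dp16, Glycam1 had 5, 0, 4 and 0 reads, Madcam1 had 0, 1, 1 and 0, and Chst4 had 1, 0, 1 and 0. All 3 genes had 0 reads in every WT library. The part of lymph node tissue in the results was not tested. Cxcl13, a B cell chemokine, ranged from 0.763 to 17.7 CPM in Dp16, highest in replicate 3, and from 1.28 to 7.58 CPM in WT. In Dp16 replicate 3, Cxcl13 made up 17.7 of the 32.2 CPM of the list. Summed macrophage and monocyte genes were 251 to 449.7 CPM in Dp16 and 273 to 305 CPM in WT. Of these 12 genes edgeR called 0, DESeq2 called 1 higher, limma-voom called 1 higher, and 3 were higher at an unadjusted p below 0.05. In Dp16 replicate 3, C1qa was at 69.8 CPM, against 32.5 to 35.1 CPM in the other 3 Dp16 libraries and 36.2 to 40.7 CPM in WT. The chemokine receptor gene Ccr2, of monocytes and some T cells, had 31.8, 17.1, 33.6 and 34.4 CPM in Dp16 and 11, 15.2, 12 and 14.6 CPM in WT, with groups apart (log2 fold change 1.15 with SE 0.214, edgeR adjusted p = 0.0532). Dendritic cell genes summed to 11.5 to 19.2 CPM in Dp16 and 11.3 to 14.9 CPM in WT, and neutrophil and mast cell genes to 23.9 to 29.4 CPM in Dp16 and 23.1 to 27.6 CPM in WT. Blood genes summed to 84.8 to 153 CPM in Dp16 and 78.4 to 128 CPM in WT, and fat and muscle genes to 1.13 to 1.63 CPM in Dp16 and 1.64 to 3.22 CPM in WT. Of the 8 dendritic, 6 neutrophil and mast cell, 6 blood and 7 fat and muscle genes tested, edgeR called 0, while 2 dendritic genes were higher and 4 fat and muscle genes lower at an unadjusted p below 0.05. DESeq2 called 2 dendritic genes higher and 1 fat or muscle gene lower, and limma-voom called 0. Among the 11 tested genes of gland epithelium 1 fell, Klk1, a tissue kallikrein (log2 fold change -0.70 with SE 0.106, edgeR adjusted p = 0.0358). Of the 11, 3 were lower at an unadjusted p below 0.05, where 24.6% of all genes tested differed in either direction. DESeq2 called the same 3 lower and limma-voom 1, with 0 higher by each. The other two were the acinar genes Aqp5, a water channel, and Bhlha15, a transcription factor of secretory cells. Aqp5 had 84, 61.1, 53.9 and 67.7 CPM in Dp16 and 115, 102, 108 and 97 CPM in WT (log2 fold change -0.66 with SE 0.131, edgeR adjusted p = 0.0589), and Bhlha15 had 157, 109.7, 113 and 117 CPM in Dp16 and 217, 226, 275 and 167 CPM in WT (log2 fold change -0.83 with SE 0.166, edgeR adjusted p = 0.0589). Each Dp16 value of both genes lay below every WT value, and the part of this in the levels of the 46 genes was not tested. Of innate lymphoid genes of groups 2 and 3, of which 0 of 3 tested passed, Il22 was at 0 reads in all libraries, Il5, Il13 and Areg were at or below 0.0557 CPM, and the sum of the list was 50.6 to 85.2 CPM in Dp16 and 42.7 to 72.9 CPM in WT.

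**Figure D5:**
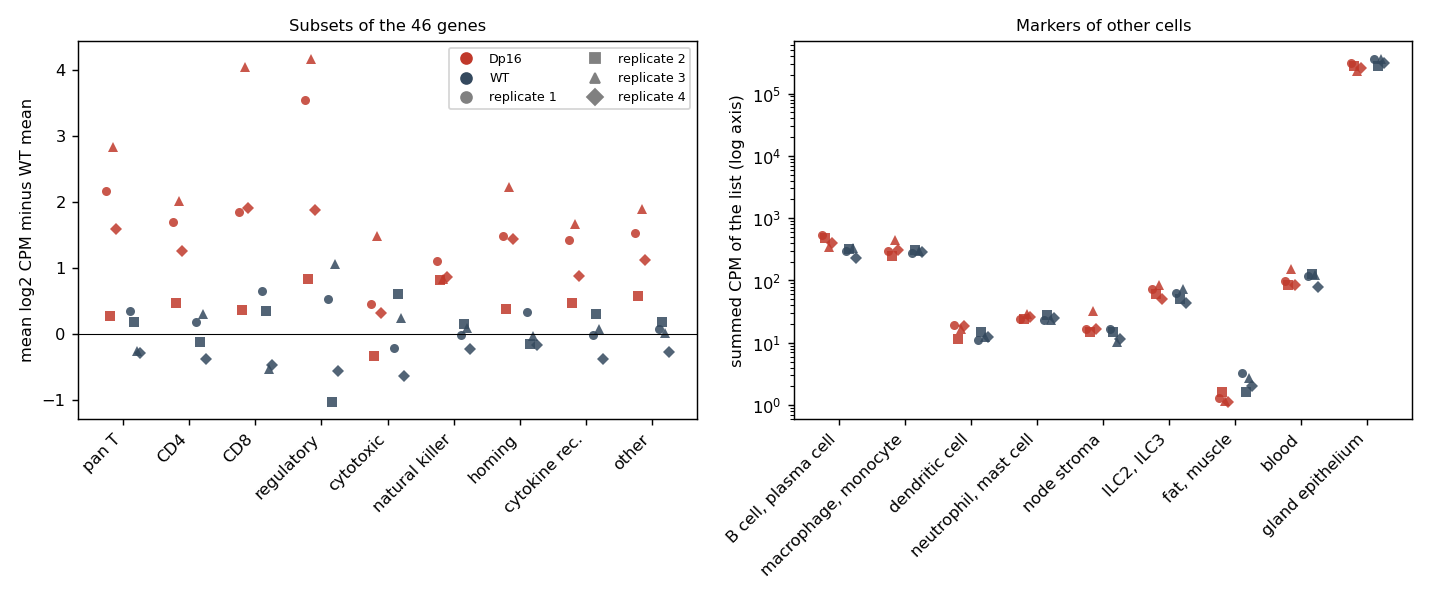
Left, mean log2 CPM of each subset of the 46 genes in each library minus its WT mean. Right, summed CPM on a log axis of the markers of other cells, with Dp16 left of WT in both panels. On the left Dp16 replicate 3 is highest in all subsets but the natural killer genes, in which Dp16 replicate 1 is highest at 1.10.

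The subset means in each library differed in how the Dp16 libraries were ordered. For natural killer receptors and factors the mean log2 CPM relative to WT was 1.10, 0.81, 0.83 and 0.86 in Dp16 and -0.01, 0.15, 0.09 and -0.23 in WT. All 4 Dp16 means lay above WT, but they pool genes with unlike orders. Dp16 replicate 2 was the lowest Dp16 library for Klrd1, Klrk1, Eomes and Tbx21 and the highest for Xcl1. For the T cell receptor group it was 2.17, 0.27, 2.83 and 1.59 in Dp16 and 0.34, 0.19, -0.25 and -0.28 in WT, and Dp16 replicate 2 lay within the WT range. Means for the CD8 genes were 1.85, 0.37, 4.04 and 1.91 in Dp16 and 0.66, 0.34, -0.52 and -0.47 in WT, and those for the cytotoxic effectors were 0.45, -0.33, 1.48 and 0.33 in Dp16 and -0.21, 0.60, 0.25 and -0.63 in WT, where 3 Dp16 libraries lay within the WT range. Outside all gene lists used here, the tested genes whose log2 CPM followed the mean of Cd3d, Cd3e and Cd3g most closely over the 8 libraries were Rcan1 (Pearson r = 0.986), Gpr18 (0.98), Rrad (0.979), Parvg (0.975) and Rgs3 (0.974), given as a description since the 8 libraries differ in genotype and in the level of Ptprc. Rcan1, a triplicated regulator of calcineurin, had 17.6, 12.2, 20.4 and 13.8 CPM in Dp16 and 10.7, 10.4, 8.47 and 9.96 CPM in WT.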

How the data were processed

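Total RNA from submandibular glands was made into stranded, rRNA-depleted libraries, per the labels' protocols. Tools listed in the submitters' processing notes are STAR, HTSeq, FastQC and DESeq2, with the build GRCm38. The sources used here do not give versions, annotation or how the counting treated strand. The deposited values are raw counts of reads per Ensembl gene, 1 table per library, made by the authors without normalization. The 5 rows that name no gene held 58.1% to 65.4% of the reads in each table and were left out. Of 54838 gene IDs, 54809 matched GENCODE M21, which gave symbols and coordinates. Exons of 7 of the 46 genes overlap another gene on the same strand and those of 9 an antisense gene.

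Genes passing edgeR's filterByExpr (19358) were tested with edgeR 4.0.16 (R 4.3.3): TMM scaling, quasi-likelihood F-test of Dp16 over WT without covariates, Benjamini-Hochberg adjustment over all genes, threshold 0.05. DESeq2 1.42.0 and limma 3.58.1 (voom with quality weights), other scalings, filters and omissions of single libraries were alternatives. The edgeR, DESeq2 and limma-voom fits were tested on simulated data. Counting alone sets a floor of 3 reads, which covers counting error only. Replicates of a group differed beyond sampling noise (chi-square per degree of freedom of 78.4 or more), so each library counted as 1 sample. The members and lists were chosen with earlier results of these data known. Values in every library are given for 28 genes chosen by name and for others that were called or whose groups did not overlap. From other lists, called genes or up to 3 with the smallest p are named, some of which are not reported here, and some further genes were named after their values were seen.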

Additional observations from a re-analysis of the deposited data

Results flagged for a closer look

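For each of the 46 genes the 4 libraries of each group were examined for a library far from the others by Dixon's criterion at the 95% level. Of the 92 groups, 3 were marked, and chance marks about 1 in 20. Lck was 0.937 CPM in WT replicate 2, with a gap to the nearest WT library of 0.864 of the group's range. Cd28 was 1.854 CPM in Dp16 replicate 2, with a gap of 0.841 below the other Dp16 libraries. Gzmb was 1.123 CPM in Dp16 replicate 3, with a gap of 0.9 above the other Dp16 libraries.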

How the results depend on the processing

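The count of genes called depended on the tool, the filter and single libraries. By edgeR 121 genes were called, against 1991 by DESeq2, 396 by limma-voom, 223 without the expression filter and 1308 at an adjusted p below 0.10, and 0 to 446 with 1 library left out. Of the 46 genes, 5 were called higher, against 33 by DESeq2, 10 by limma-voom, 11 without the filter, 26 at an adjusted p below 0.10, and 0 to 25 with 1 library left out. The cause was not tested. Same-numbered libraries had correlations of deviations of 0.191, 0.129, 0.0777 and 0.105, 1 of them under 0.1, and 2 of the 4 Dp16 libraries correlated best with another number, so the numbers were not taken as pairs, and with a replicate block 776 genes and 11 of the 46 were called. No fold change of the 45 tested genes changed sign in 650 comparisons, and 0 were called lower in any alternative. Both other scalings left all 45 on the same side of the threshold. A minimum of 1 CPM kept 20 of the 46. Small ratio differences changed sign. Cd8a to Cd4 was -0.52 to 0.40 with 1 library left out, and Cd4 to Cd3e -0.36 to 0.41, and -0.0001527 with a prior count of 0.5. Foxp3 to Cd4 was 1.54 with a prior count of 0.5, 0.48 with 2 and -0.17 with 5. Depth limits Foxp3, which is near the counting floor.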

Other observations

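Trdc, the constant gene of the T cell receptor delta chain, had 33.2, 54.7, 30.1 and 39.0 CPM in Dp16 and 39.6, 49.0, 35.3 and 43.6 CPM in WT. Per kilobase of exon this was 10.1 CPM in Dp16 and 10.8 CPM in WT, against 0.785 CPM in Dp16 and 0.168 CPM in WT for Cd3g, while Tcrg-C1, a constant gene of the gamma chain, had at most 0.104 CPM in any library. The groups overlapped for Trdc, and its Dp16 library order was the reverse of that of Cd3e.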
